A study of Mus musculus with 16 samples.

Results

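The genes described here mark dividing cells and newborn neurons in the adult mouse brain. They are Mki67, Top2a, Ccnb2, Birc5, Cdca8 and Ube2c, which cycling cells use, and Dcx, Igfbpl1 and Sox11, which young neurons use. They were taken by name, as all probe sets whose only gene symbol in the platform annotation is one of these 9 genes, out of 18194 genes named there. This gave 22 of the 45101 probe sets on the array (10 for the 6 cycling cell genes and 12 for the 3 young neuron genes).

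The genes were read in 16 Affymetrix arrays from C57BL/6J mice, in 8 groups of 2 arrays each. The groups were WT or KO, female or male, and cerebellum (cb) or rest of brain (Br, the whole brain without its cerebellum and cleaned of brain stem). KO mice were homozygous SINE mutants descended from 1 CRISPR founder line, and the WT mice were age-matched littermates. The mutation is a 4 bp deletion right behind the start codon that a SINE, a short repeat element, gives to the brain-specific fusion transcript of Ppargc1a, the gene of the transcriptional co-activator PGC1α. The fusion transcript is still made in the KO, and the exact age of the mice is not given in the sources used here. Per the methods the 2 arrays of a group are independent specimens, matched by litter where this could be done. Neither the labels nor the methods state whether equally numbered arrays of both brain parts share an animal.

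In the adult mouse brain, most neurons were born before or soon after birth and no longer divide. Neural stem cells persist in the subventricular zone of the lateral ventricles and in the subgranular zone of the hippocampal dentate gyrus, and both zones lie in the rest-of-brain samples. Their progeny divide a few more times, migrate as young neurons that contain the microtubule-binding protein doublecortin (Dcx) and the transcription factor Sox11, and mature in the olfactory bulb or the dentate gyrus. In the cerebellum, the production of granule cells from the external granular layer ends during early postnatal life. Oligodendrocyte precursors, microglia and endothelial cells can divide in every part of the brain.

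The products of the cycling cell genes act at successive steps of cell division. Mki67 encodes the Ki-67 protein that coats mitotic chromosomes, and Top2a encodes the topoisomerase that untangles replicated DNA. Ccnb2 encodes a B-type cyclin that activates the mitotic kinase Cdk1. Birc5 (survivin) and Cdca8 (borealin) are subunits of the chromosomal passenger complex, which carries Aurora B kinase to centromeres. Ube2c is the ubiquitin-conjugating enzyme of the anaphase-promoting complex (APC/C), which marks cyclins for destruction. Among the young neuron genes, Igfbpl1 encodes a secreted protein of the IGF-binding protein-like family.

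Promoters of late cell cycle genes often carry a cell cycle genes homology region (CHR), read by the MuvB complexes that silence these genes in resting cells, together with CCAAT boxes, which bind the factor NF-Y. The RefSeq promoter windows of 8 of the 9 genes (GRCm38.p6) were searched for TTTGAA as the CHR and for CCAAT, on both strands and with overlaps allowed. The windows run from 250 bases before to 50 bases after a start site. Of 32851 such windows of all genes, 17.9% held the CHR letters, 37.4% held CCAAT, 6.95% held both, and 0.545% held the CHR with at least 3 CCAAT matches. Of the cycling cell genes, 5 belonged to the last class. Mki67 held 2 CHR and 3 CCAAT matches, Top2a 2 and 6, Ccnb2 2 and 3, Cdca8 1 and 4, and Ube2c 1 and 6, whereas Birc5 held none of either. Sox11 held 1 of each. Dcx held 1 CCAAT match at each of its 2 start sites and no CHR. A match is a stretch of letters and not a measured binding site.

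Sequences are shown for the 5 cycling cell genes with both motifs. Dcx (first start site) and Sox11 are added, as genes of the probe sets that separated the brain parts most. The windows shown run from 200 bases before to 25 bases after the start site. They are written 5′ to 3′ on the strand of the gene, and capitals mark the CHR and CCAAT matches, which overlap in Cdca8 (TTTGAATTGG) and in Ube2c (CCAATTGG).
Mki67 (chr7:135716355-135716579, - strand): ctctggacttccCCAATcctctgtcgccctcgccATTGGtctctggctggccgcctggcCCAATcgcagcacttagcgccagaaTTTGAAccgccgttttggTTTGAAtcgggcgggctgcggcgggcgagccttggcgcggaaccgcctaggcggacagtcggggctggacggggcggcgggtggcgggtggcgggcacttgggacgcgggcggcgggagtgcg
Top2a (chr11:99024165-99024389, - strand): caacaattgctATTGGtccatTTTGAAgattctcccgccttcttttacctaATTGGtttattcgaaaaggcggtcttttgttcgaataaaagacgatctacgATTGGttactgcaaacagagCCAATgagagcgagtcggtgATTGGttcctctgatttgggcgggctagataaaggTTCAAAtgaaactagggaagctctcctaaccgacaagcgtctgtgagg
Ccnb2 (chr9:70421530-70421754, - strand): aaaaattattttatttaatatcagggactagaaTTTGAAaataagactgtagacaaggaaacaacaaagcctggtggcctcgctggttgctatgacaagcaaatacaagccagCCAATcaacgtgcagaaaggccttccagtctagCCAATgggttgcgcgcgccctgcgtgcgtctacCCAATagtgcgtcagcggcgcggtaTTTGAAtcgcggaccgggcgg
Cdca8 (chr4:124936893-124937117, - strand): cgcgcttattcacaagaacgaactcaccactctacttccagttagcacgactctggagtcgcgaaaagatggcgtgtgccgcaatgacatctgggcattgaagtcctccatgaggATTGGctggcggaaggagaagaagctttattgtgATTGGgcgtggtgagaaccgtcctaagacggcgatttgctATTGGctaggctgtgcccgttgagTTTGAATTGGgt
Ube2c (chr2:164769729-164769953, + strand): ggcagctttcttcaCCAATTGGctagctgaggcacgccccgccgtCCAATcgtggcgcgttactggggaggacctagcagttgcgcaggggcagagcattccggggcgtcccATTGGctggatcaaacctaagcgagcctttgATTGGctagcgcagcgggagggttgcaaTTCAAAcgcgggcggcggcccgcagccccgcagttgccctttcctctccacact
Dcx (chrX:143933195-143933419, - strand): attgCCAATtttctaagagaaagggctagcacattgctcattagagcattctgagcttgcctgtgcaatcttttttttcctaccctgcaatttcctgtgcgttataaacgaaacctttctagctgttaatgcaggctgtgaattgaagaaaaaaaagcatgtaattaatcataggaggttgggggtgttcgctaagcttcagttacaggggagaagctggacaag
Sox11 (chr12:27342694-27342918, - strand): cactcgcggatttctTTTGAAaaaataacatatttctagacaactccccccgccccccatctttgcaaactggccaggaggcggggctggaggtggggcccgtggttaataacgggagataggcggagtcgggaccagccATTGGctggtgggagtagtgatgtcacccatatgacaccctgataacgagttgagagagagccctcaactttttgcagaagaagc

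**Figure D1:**
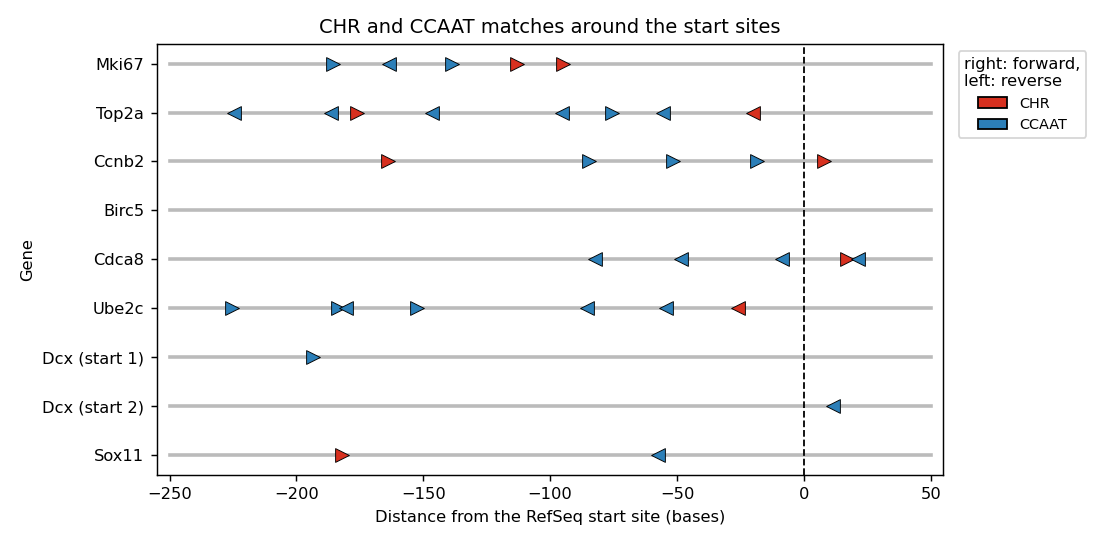
Positions of CHR matches (red) and CCAAT matches (blue) in the RefSeq promoter windows of 8 of the genes, with the distance from the start site in bases on the horizontal axis and 1 line for each start site; right-pointing triangles are on the strand of the gene and left-pointing ones on the other. Mki67, Top2a, Ccnb2, Cdca8 and Ube2c each carry a CHR match with 3 to 6 CCAAT matches, and Birc5 carries none.

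The deposited values were not intensities. They took only 5 distinct numbers, read here as levels from 2 to -2. Level 2 (59.7% of all values) was taken to mean detected and level 1 marginal. Level 0 was taken to mean not detected, and so were the negative levels, which have no explanation in the sources used here. These sources do not state the meaning of any of the numbers. A call is therefore the only measurement of these genes, no fold change can be given, and calls do not rank genes by abundance. A probe set of a gene that few cells use can also fall under the detection limit, and in bulk tissue fewer cells of a type and less RNA per cell cannot be told apart. Arrays detected between 25517 and 28155 probe sets each, and no pair of arrays had fewer than 2663 differing calls. The number of arrays limits the precision of every count below.

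Of 352 calls of the 22 probe sets, 135 were detected. Of the probe sets, 5 were detected on all 16 arrays, 8 on none, and 9 on some, against 48.0%, 27.0% and 25% of all probe sets of the array. No probe set of a cycling cell gene was detected on all arrays, 6 of 10 were detected on none, and 4 on some. Of the 12 young neuron probe sets, 5 were detected on all arrays, 2 on none and 5 on some. Those on all arrays belonged to Dcx and Sox11 alone, and those on none were both of Igfbpl1. The calls therefore did not split the genes by role.

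**Figure D2:**
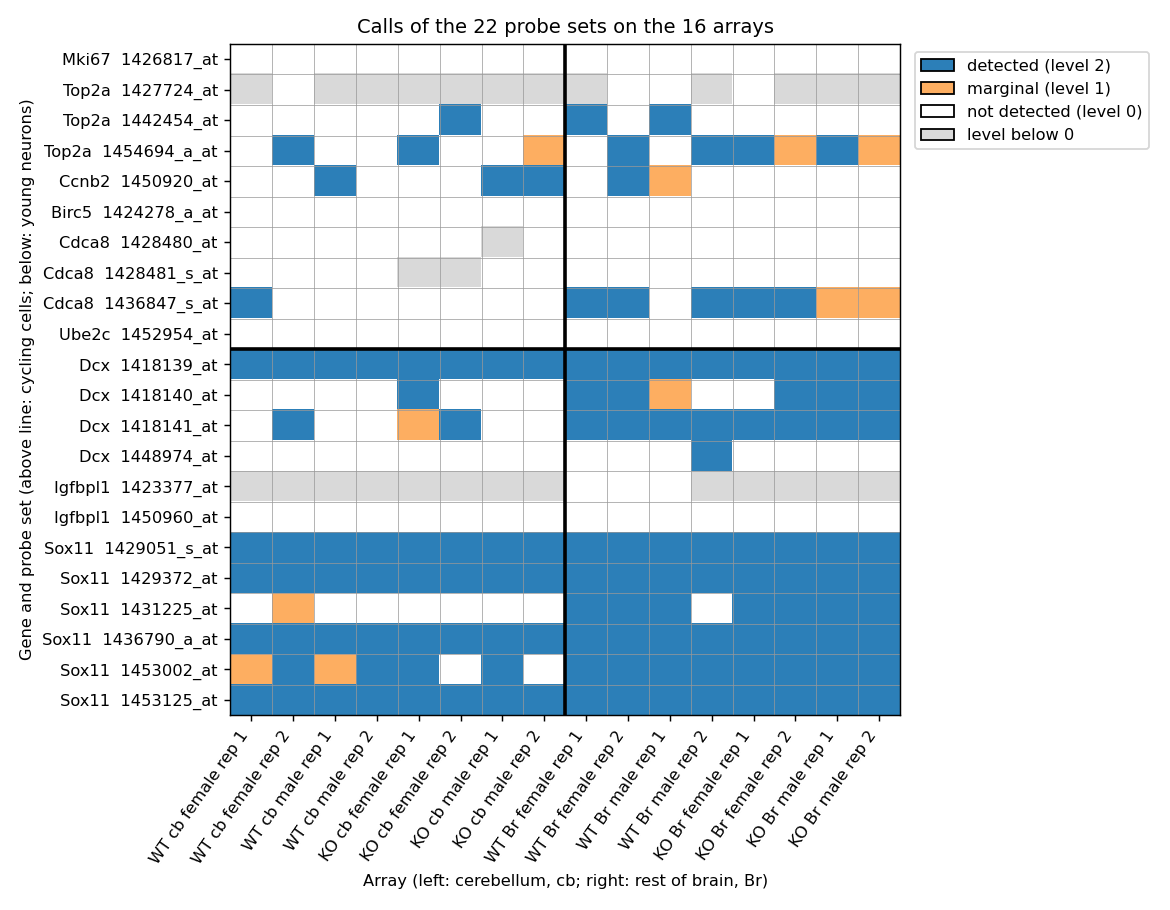
Calls of the 22 probe sets (rows, cycling cell genes above the horizontal line and young neuron genes below it) on the 16 arrays (columns, cerebellum left and rest of brain right of the vertical line). Dcx 1418139_at and 4 Sox11 probe sets were detected on every array, and all 9 probe sets with mixed calls except that of Ccnb2 had more detected calls on the right.

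Mki67, Birc5 and Ube2c each had 1 probe set (1426817_at, 1424278_a_at and 1452954_at), and none was detected or marginal on any of the 16 arrays. Their calls thus did not separate the brain parts, the sexes or the genotypes. Both Igfbpl1 probe sets were also undetected on all arrays. Igfbpl1 1450960_at was at level 0 on all 16, and Igfbpl1 1423377_at was below level 0 on 13 arrays, which held for 0.315% of all probe sets. The 3 arrays on which it was at level 0 were WT Br female replicates 1 and 2 and WT Br male replicate 1. Igfbpl1 overlaps Stra6l in the RefSeq annotation, and whether the probe sets separate these genes is not known here.

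Top2a had 3 probe sets, and they gave different calls. Top2a 1427724_at was never detected and was below level 0 on 12 arrays (0.426% of all probe sets were so on at least 12). Top2a 1442454_at was detected on KO cb female replicate 2, WT Br female replicate 1 and WT Br male replicate 1. Top2a 1454694_a_at was detected on WT cb female replicate 2, KO cb female replicate 1, WT Br female replicate 2, WT Br male replicate 2, KO Br female replicate 1 and KO Br male replicate 1, and was marginal on 3 further KO arrays. The last 2 probe sets were never detected on the same array. At least 1 Top2a probe set was detected on 3 of 8 cerebellum arrays and 6 of 8 rest-of-brain arrays, so calls of the gene overlapped between the parts. Top2a overlaps LOC115487886 in the annotation.

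Cdca8 also had 3 probe sets, of which 1428480_at and 1428481_s_at were never detected. Cdca8 1436847_s_at was detected on WT cb female replicate 1 alone among the cerebellum arrays. In the rest of the brain it was detected on WT female replicates 1 and 2, WT male replicate 2 and KO female replicates 1 and 2, was marginal on both KO male arrays, and was not detected on WT male replicate 1. The ending _s_at marks a probe set that can match several transcripts, and without such probe sets Cdca8 had no detected call.

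Ccnb2 1450920_at was the only probe set among the 22 detected on more cerebellum than rest-of-brain arrays. It was detected on WT cb male replicate 1 and on both KO cb male arrays, and on none of the 4 female cerebellum arrays. In the rest of the brain it was detected on WT female replicate 2 and marginal on WT male replicate 1. This pattern by sex was noticed after its values were seen. Across the array, 0.253% of probe sets were detected on at least 3 of 4 male and on none of 4 female cerebellum arrays. An exact permutation test of the difference between the parts in the sex effect gave p = 0.0714 for Ccnb2, and 1 after adjustment by the Benjamini-Hochberg method, and 0.319% of all probe sets had an unadjusted p under 0.05 in it. Between the 8 female and 8 male arrays, none of the 22 probe sets had an unadjusted p under 0.05 by Fisher's exact test, beside 0.286% of all. Only 5 of the 22 were detected on a number of arrays that allows such a p, and Ccnb2 1450920_at was not among them.

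Dcx had 4 probe sets with 4 different patterns. Dcx 1418139_at was detected on all 16 arrays, so the gene was detected in both parts of the brain. Dcx 1418141_at was detected on all 8 rest-of-brain arrays and on 2 of 8 cerebellum arrays, WT female replicate 2 and KO female replicate 2, with a marginal call on KO cb female replicate 1. Dcx 1418140_at was detected on 5 rest-of-brain arrays, both WT female arrays, KO female replicate 2 and both KO male arrays, was marginal on WT Br male replicate 1, and was detected on 1 cerebellum array, KO female replicate 1. Dcx 1448974_at was detected on WT Br male replicate 2 only.

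Sox11 had 6 probe sets, and 4 of them (1429051_s_at, 1429372_at, 1436790_a_at and 1453125_at) were detected on all 16 arrays. Sox11 1431225_at was detected on 7 of 8 rest-of-brain arrays, all except WT male replicate 2, and on no cerebellum array, with a marginal call on WT cb female replicate 2. Sox11 1453002_at was detected on all 8 rest-of-brain arrays and on 4 cerebellum arrays, WT female replicate 2, WT male replicate 2, KO female replicate 1 and KO male replicate 1, and was marginal on 2 more.

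The cerebellum was compared with the rest of the brain because the rest of the brain holds the adult neurogenic zones. The young neuron genes Dcx and Sox11 were detected by more of their probe sets in the rest of the brain, the cycling cell genes stayed mostly undetected in both parts, and only Ccnb2 ran the other way. Young neuron probe sets gave 69 detected calls of 96 in the rest of the brain and 47 of 96 in the cerebellum, and cycling cell probe sets gave 12 and 7 of 80. By gene, the share of calls that were detected was 68.8% in the rest of the brain and 34.4% in the cerebellum for Dcx, 97.9% and 75.0% for Sox11, 25% and 12.5% for Top2a, 20.8% and 4.17% for Cdca8, and 12.5% and 37.5% for Ccnb2.

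Of the 22 probe sets, 8 were detected on more rest-of-brain than cerebellum arrays and 1 on more cerebellum arrays, beside 12.7% and 9.64% of all probe sets. Among all probe sets of the array detected on some arrays, 50.7% leaned to the rest of the brain and 38.6% to the cerebellum. Counted per array, the probe sets detected were 6 to 8 (median 6.5, mean 6.75 ± 0.886, SD, n = 8) in the cerebellum and 9 to 12 (median 10, mean 10.1 ± 0.991, SD, n = 8) in the rest of the brain, so the ranges did not overlap. Of all probe sets, 56.6% to 60.9% were detected per cerebellum array and 59.2% to 62.4% per rest-of-brain array, and these ranges overlapped. The 9 genes were chosen with earlier results of these data known. Most of the gap among the 22 came from several probe sets each of Dcx and Sox11. Young neuron probe sets detected were 5 to 7 per cerebellum array and 8 or 9 per rest-of-brain array. Cycling cell probe sets detected per array ranged from 0 to 1 in the cerebellum and from 0 to 3 in the rest of the brain, which overlapped. With 1 call per gene, detected when any probe set was, Dcx and Sox11 were detected on every array and the means were 2.88 genes per cerebellum array and 3.5 per rest-of-brain array. The genes that differed were then cycling cell genes. Top2a was detected on 3 cerebellum and 6 rest-of-brain arrays, Cdca8 on 1 and 5, and Ccnb2 on 3 and 1.

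**Figure D3:**
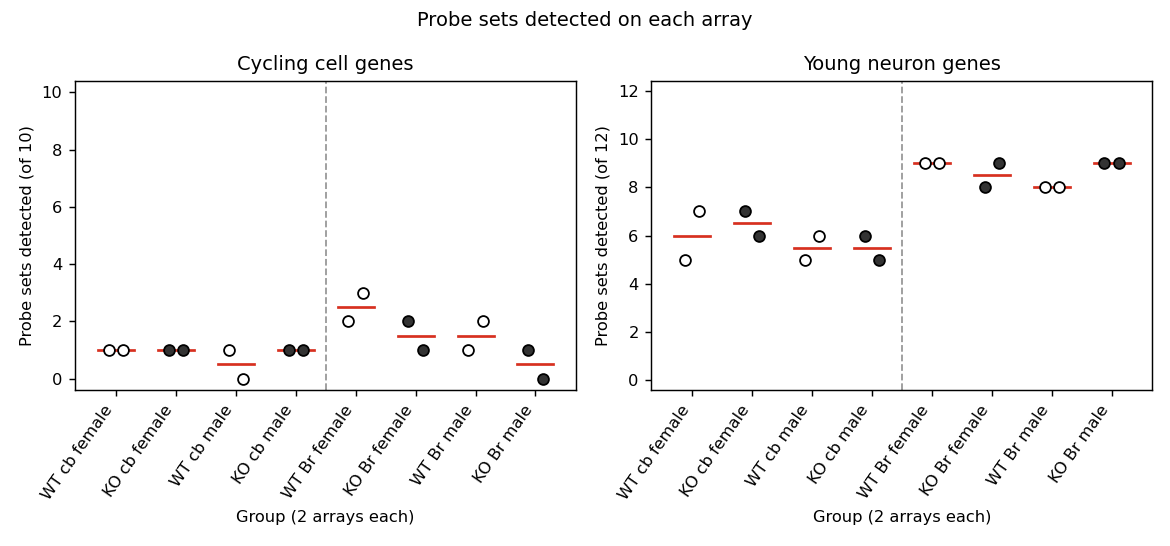
Number of probe sets detected on each array (points, 2 arrays for each of the 8 groups, open for WT and filled for KO; red lines are group means) for the 10 cycling cell probe sets (left) and the 12 young neuron probe sets (right). Young neuron probe sets lie between 5 and 7 on cerebellum arrays and at 8 or 9 on rest-of-brain arrays, while cycling cell probe sets overlap between the parts.

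Each probe set was tested between the 8 cerebellum and 8 rest-of-brain arrays by Fisher's exact test, two-sided, and p-values were adjusted by the Benjamini-Hochberg method over the whole array of 45101. The threshold of 0.05 on the adjusted p left 0 of the 22 called, beside 0% of all probe sets. The smallest adjusted p that any probe set reached was 0.0501, that of a probe set detected on all 8 arrays of one part and on none of the other. None of the 22 was detected on all arrays of one part and none of the other, which held for 0.31% of all probe sets. At an unadjusted p under 0.05, 2 of the 22 passed, beside 2.76% of all probe sets (1.73% toward the rest of the brain). These were Sox11 1431225_at (p = 0.0014, adjusted p = 0.161 by Fisher's exact test) and Dcx 1418141_at (p = 0.00699, adjusted p = 0.476 by Fisher's exact test). WT Br male replicate 2 was the array in the rest of the brain that did not detect Sox11 1431225_at. Without that array the probe set was detected on 7 of 7 against 0 of 8 arrays. It was then called over all probe sets (adjusted p = 0.0452, Fisher's exact test), 1 of 155 called in that run. Leaving out the array that did not detect it gave this full separation by construction. With each array left out in turn, 144 to 257 probe sets were called, against 0 with all arrays kept. No conclusion on Sox11 is therefore drawn from the call in that run.

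A run limited to the 3873 probe sets detected on enough arrays, and not on too many, for an exact p under 0.05 held 5 of the 22 and called 2, both toward the rest of the brain, beside 17.1% of the probe sets in that run (11.5% toward the rest of the brain and 5.55% toward the cerebellum). Sox11 1431225_at had an adjusted p of 0.0138 and Dcx 1418141_at of 0.0409 in this run of Fisher's exact test. The other members of the run had adjusted p-values of 0.305 (Dcx 1418140_at and Cdca8 1436847_s_at) and 0.877 (Top2a 1454694_a_at). With marginal calls counted as detected no member was called in the limited run. The adjusted p was then 0.0547 for Sox11 1431225_at and for Cdca8 1436847_s_at, and 0.100 for Dcx 1418141_at, in Fisher's exact test. In an exact test within each sex and genotype, Sox11 1431225_at was called alone (adjusted p = 0.0456 in the limited run) and Dcx 1418141_at had an adjusted p of 0.0723.

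**Figure D4:**
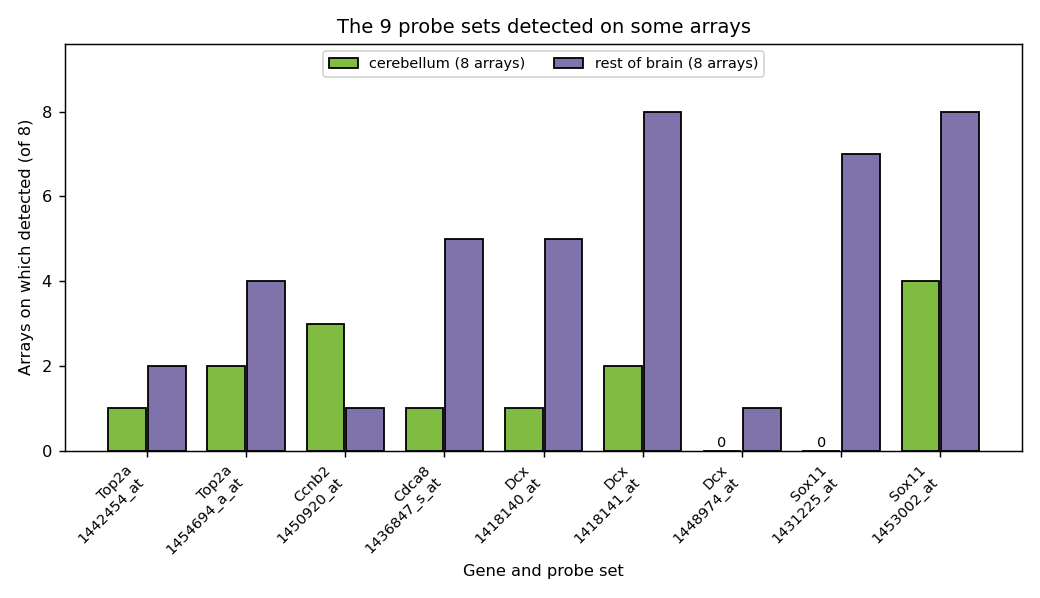
Number of arrays, of 8 in each part of the brain, on which each of the 9 probe sets with mixed calls was detected (green, cerebellum; purple, rest of brain). Sox11 1431225_at was detected on 0 and 7 arrays and Dcx 1418141_at on 2 and 8, and Ccnb2 1450920_at, with 3 and 1, is the only one with the higher bar in the cerebellum.

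The labels of the parts were set against marker genes. Barhl1, Barhl2 and Zic2, transcription factors of the cerebellar granule cell lineage, were detected on 8 of 8 cerebellum arrays and 0 of 8 rest-of-brain arrays, and the forebrain factors Emx1 and Tbr1 on 0 and 8. Emx2, also a forebrain factor, was detected on 2 cerebellum and 8 rest-of-brain arrays. So was Bcl11b 1438784_at, 1 of 4 probe sets of another forebrain factor. A different Bcl11b probe set was detected on all 16 arrays. Of the 24 probe sets for 12 granule cell genes, a median of 87.5% was detected in the cerebellum (62.5% to 91.7%) and 47.9% in the rest of the brain (41.7% to 66.7%). WT cb female replicate 2 held the lowest cerebellar value, within the range of the rest of the brain. It detected 64.7% of the forebrain and olfactory bulb list. Medians of that list were 52.9% in the cerebellum (47.1% to 70.6%) and 76.5% in the rest of the brain (76.5% to 88.2%). The highest cerebellar value, 70.6%, was that of WT cb male replicate 2, which detected neither Dcx 1418141_at nor Sox11 1431225_at. WT cb female replicate 2 was 1 of the 2 cerebellum arrays that detected Dcx 1418141_at. It was also the only cerebellum array with a marginal call of Sox11 1431225_at. Without that array Dcx 1418141_at was detected on 1 of 7 cerebellum arrays, its adjusted p in the limited run of Fisher's exact test was 0.0116, and the mean number of probe sets detected on cerebellum arrays was 6.57. Without KO cb female replicate 2, the other cerebellum array that detected it, Dcx 1418141_at was also detected on 1 of 7. Its adjusted p was then 0.0154 in the limited run of Fisher's exact test. KO cb female replicate 2 detected 87.5% of the granule cell list. Leaving out an array that detects a probe set lowers its count by construction.

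Of 85 other genes of mitosis and DNA replication, 37 had a probe set detected on all arrays, 17 had none on any array and 31 were in between. Those never detected included Cdk1, the partner kinase of Ccnb2, Aurka, a kinase of the spindle poles, and the mitotic kinesins Kif20a, Kif23 and Kif4. Those detected on all 16 arrays included Pcna, Mcm2, Cdc20, Incenp, Racgap1 and Kif22. Of the 208 probe sets of this list, 39 were detected on more rest-of-brain and 31 on more cerebellum arrays, and per array a median of 43.8% and 42.5% were detected, beside 60.0% and 59.2% of all probe sets. Of its 33 probe sets in the limited run, 1 was called toward the rest of the brain and 0 toward the cerebellum, beside 11.5% and 5.55% of all probe sets in that run. It was E2f1 1417878_at, a transcription factor that drives entry into DNA synthesis, detected on 8 of 8 rest-of-brain and 0 of 8 cerebellum arrays (adjusted p = 0.0043 in the limited run and 0.0501 over all probe sets, Fisher's exact test). E2f1 had 3 probe sets, and at least 1 of them was detected on 8 rest-of-brain and 6 cerebellum arrays.

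The list of 22 other genes of the passenger complex and the APC/C, whose products are partners of Birc5, Cdca8 and Ube2c, had 57 probe sets. Of these, 32 were detected on all arrays, 14 on none and 11 on some. The medians per array were 64.0% in the rest of the brain and 64.9% in the cerebellum. In the limited run 0 of its 5 probe sets were called in either direction, beside 17.1% of all probe sets in that run. At an unadjusted p under 0.05 there were 0 toward the rest of the brain and 1 toward the cerebellum. So few probe sets in the run cannot show a lack of difference. Of the 35 probe sets for 19 genes of cell cycle exit, such as inhibitors of the cell cycle, a median of 68.6% was detected in both parts, while 3 were detected on more rest-of-brain and 10 on more cerebellum arrays. Only 3 of them were in the limited run, of which 0 were called and 0 had an unadjusted p under 0.05. These are also too few to show a lack of difference beside the 17.1%.

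For other young neuron genes, 37 genes had 104 probe sets, of which 16 were detected on more rest-of-brain and 8 on more cerebellum arrays, with medians of 68.3% and 63.5% detected per array. Of its 15 probe sets in the limited run, 4 were called toward the rest of the brain and 0 toward the cerebellum, beside 11.5% and 5.55% of all probe sets in that run. Dlx1 and Dlx5, factors of GABA neuron precursors including those bound for the olfactory bulb, and Tbr1, a factor of young glutamatergic neurons, were each detected on 8 rest-of-brain and 0 cerebellum arrays. Tbr1 is also among the forebrain factors used above to check the labels of the parts. Whether these calls came from young neurons or from other cells of the forebrain was not tested. Dclk1 1451917_a_at, for the doublecortin-like kinase related to Dcx, was detected on 6 rest-of-brain and 0 cerebellum arrays, while 8 of the 9 Dclk1 probe sets were detected on all 16. Eomes 1426001_at, a factor of intermediate progenitors and also of unipolar brush cells in the cerebellum, was detected on 7 cerebellum arrays and 1 rest-of-brain array (adjusted p = 0.0507 in the limited run of Fisher's exact test). By any of its 2 probe sets, Eomes was detected on 7 cerebellum and 3 rest-of-brain arrays.

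Of the 94 probe sets for 35 stem and progenitor cell genes, 7 were detected on more rest-of-brain and 13 on more cerebellum arrays, the medians per array were 58.5% and 63.3%, and of 10 in the limited run 0 were called toward the rest of the brain and 2 toward the cerebellum (11.5% and 5.55% of all probe sets in that run). These were Pax6 1452526_a_at (7 cerebellum and 0 rest-of-brain arrays), a factor that granule cells of the cerebellum also use, and Gli1 1449058_at (8 and 2), a target of hedgehog signalling that Bergmann glia also use. Another of the 5 Pax6 probe sets was detected on all 16 arrays. For lists of other cells that can divide, the medians were 80.0% in both for 9 oligodendrocyte precursor genes, 80.0% in the rest of the brain and 76.7% in the cerebellum for 9 microglia genes, and 61.5% in both for 9 endothelial and blood genes, and 0 of their probe sets were in the limited run, so none could reach an unadjusted p under 0.05. Of the 19 probe sets for 11 pituitary and choroid plexus genes, medians of 44.7% and 52.6% were detected in the rest of the brain and the cerebellum. In the limited run 0 of 5 were called, beside 17.1% of all probe sets in that run. Tshb, a pituitary hormone subunit, was detected on 7 cerebellum arrays and 1 rest-of-brain array.

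**Figure D5:**
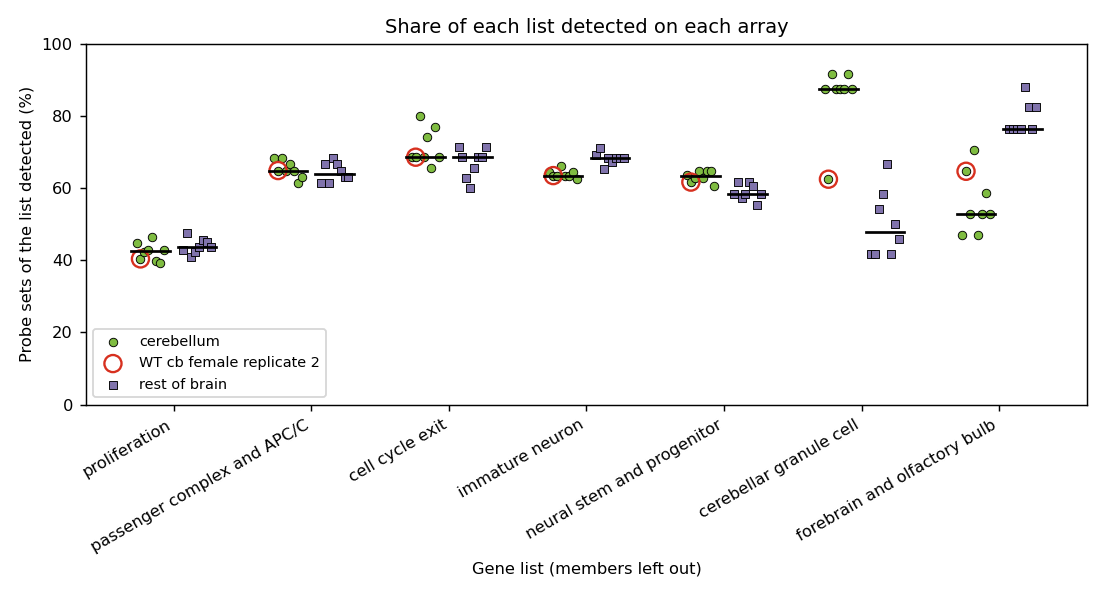
Share of the probe sets of each gene list detected on each array, in percent (green circles, 8 cerebellum arrays; purple squares, 8 rest-of-brain arrays; black lines, medians), with the 9 genes described here left out of every list; the red ring marks WT cb female replicate 2. The proliferation list has medians of 42.5% and 43.8%, the immature neuron list 63.5% and 68.3%, and the granule cell list 87.5% and 47.9%.

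The second question was whether calls of these genes differed between SINE KO and WT arrays. Probe sets detected per array averaged 8.38 ± 1.6 (SD, n = 8, range 6 to 10) in KO and 8.5 ± 2.39 (SD, n = 8, range 6 to 12) in WT. Of the 9 probe sets with mixed calls, 2 were detected on more KO arrays, 3 on more WT arrays and 4 on equal numbers, beside 9.11% and 10.4% of all probe sets that leaned to KO and to WT (36.5% and 41.4% of those detected on some arrays).

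Fisher's exact test called 0 of the 22 between KO and WT, over all probe sets and in the limited run, beside 0% of all probe sets in both. None of the 22 had an unadjusted p under 0.05, beside 0.0843% of all probe sets. Only 5 of the 22 could reach such a p, beside 8.59% of all probe sets, and for the others this was fixed by their calls. Dcx 1418141_at was detected on 5 KO and 5 WT arrays, Sox11 1453002_at on 6 and 6, and Ccnb2 1450920_at on 2 and 2. Sox11 1431225_at was detected on 4 KO and 3 WT arrays, Dcx 1418140_at on 4 and 2, Cdca8 1436847_s_at on 2 and 4, and Top2a 1442454_at on 1 and 2. No probe set was thus detected on more than 2 arrays more of one genotype than of the other.

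Within 1 sex and part, 2 arrays against 2 allow no exact p below 0.333, so these calls are given as values. Only Dcx 1418140_at was detected on both arrays of one genotype and neither of the other. That was in the male rest of the brain, where both KO arrays detected it, WT replicate 1 was marginal and WT replicate 2 did not. Of all probe sets, 1.02% switched in this way there, 0.576% with both KO arrays detected. In the female rest of the brain (background 0.94%), the female cerebellum (1.45%) and the male cerebellum (1.1%), none of the 22 did.

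No gene of the lists above was detected on at least 6 more arrays of one genotype than the other, and the limited run called 0 of their probe sets for genotype. The number of probe sets at an unadjusted p under 0.05 for genotype was also 0 in each list, which for the oligodendrocyte precursor, microglia, and endothelial and blood lists was fixed by their calls.

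Among the 8072 other named probe sets detected on some arrays, the calls most like those of each of these probe sets detected on 3 to 13 arrays were found by the number of arrays with the same call. The arrays share their 2 brain parts, so any gene that separates the parts well matches the others. Dcx 1418141_at had the same call on 16 of 16 arrays as 16 genes, the first by name being Bcl11b, Camk2a and Cpne7. Sox11 1431225_at had the same calls as 11 genes, among them Adam8 and Ccdc88c, and Sox11 1453002_at as Clba1 and Uox. Top2a 1442454_at had the same calls as Myof. For Ccnb2, Cdca8 1436847_s_at, Top2a 1454694_a_at and Dcx 1418140_at the best matches had the same call on 15 arrays, shared by 14, 5, 4 and 5 genes.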

How the data were processed

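Gene expression was profiled on Affymetrix arrays in total RNA amplified with a 3′ IVT kit. Samples were grouped by their titles. A human array is named in the methods, but the probe set names belong to a mouse array. The study's methods and the processing notes of the submitters name MAS5, whereas its results name RMA and LSTNR, with a genome build not given in the sources used here.

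The deposited table held 45101 probe sets for each of 16 arrays, with 5 distinct numbers in all. As 4-byte numbers these differ in their first byte alone, which read as a signed integer is 2, 1, 0, -1 or -2. This deposited score was read as a call, with values above 5e-38 taken as detected. Platform annotation gave 1 symbol to 34958 probe sets, several to 932 and none here to 9211.

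The genes and lists were chosen with earlier results of these data known. Fisher's exact test (two-sided, scipy 1.17.1) was run on every probe set for part and genotype with Benjamini-Hochberg adjustment over all, at 0.05. The alternatives were the limited run, marginal calls as detected, 1 call per gene, no _s_at or _x_at probe sets, the replicate block, strata, single sexes or parts, and each array left out. Genes were named from a list where at least 6 of 8 arrays separated the groups, at most 4 per list and direction, and for likeness at most 3 per probe set. The genes of mitosis and DNA replication named as never detected or detected on all arrays are examples outside this rule. Scripts were tested on simulated data. Promoters came from RefSeq (GRCm38.p6).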

Additional observations from a re-analysis of the deposited data

Results flagged for a closer look

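In 30 groups of 8 arrays, an array whose value lay apart from the others by Dixon's criterion was found in 5. For continuous, normally distributed values the criterion flags about 1 group in 20 by chance. These values rest on small counts with many ties, and 1 differing array among tied ones is always flagged. That rate therefore does not hold here. In the cerebellum, WT cb male replicate 2 was the only array with 0 cycling cell probe sets detected, where the others had 1 each. WT cb female replicate 2 detected 62.5% of the cerebellar granule cell list. In the rest of the brain, KO Br male replicate 1 detected 53.8% of the endothelium and blood list, where the median was 61.5%, and 89.5% of the pituitary and choroid plexus list, where the median was 44.7%. KO Br male replicate 2 detected 86.7% of the microglia list, where the median was 80.0%. The part these values play in the calls of the proliferation and young neuron genes was not tested.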

How the results depend on the processing

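Called between the brain parts over all probe sets were 0 of the 22 probe sets, 2 in the limited run, and 0 to 1 with each array left out in turn. The 1 was Sox11 1431225_at without WT Br male replicate 2. That array was the one in the rest of the brain that did not detect it, so the separation was fixed by construction. Of all probe sets, 0 were called between the parts, 131 without _s_at and _x_at probe sets, 61 genes with 1 call per gene, and 144 to 257 with each array left out (257 without WT cb female replicate 2). The 2 calls of the limited run held without any 1 array, became 1 within strata, and became 0 with marginal calls counted as detected, with 1 call per gene, in female arrays only and in male arrays only. Arrays of the same number did not deviate together (correlations from -0.0212 to 0.0710), and with the replicate block (exact McNemar test over pairs) the limited run called 0 between the parts. The block called 0 for genotype as well. The block and the runs on a single sex called 0 probe sets of the whole array between the parts, so they bear on no single gene. The difference in mean probe sets detected per array, rest of brain minus cerebellum, was 3.38 and became 0.625 with 1 call per gene, where 2 genes (Top2a and Cdca8) in place of 8 probe sets leaned to the rest of the brain.

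Between KO and WT, no alternative called any of the 22. The difference in mean probe sets per array, KO minus WT, was -0.125. It was 0.125 without _s_at and _x_at probe sets, 0.25 in male arrays, 0.5 in cerebellum arrays, and -0.482 to 0.375 with each array left out. The count detected on more KO than WT arrays was 2, and became 0 with 1 call per gene and in female arrays, and 2 to 6, by share of arrays, with each array left out (6 without WT Br female replicate 2). By gene, the difference in the share of detected calls reversed for Ccnb2 between the parts in female arrays (25 percentage points, from -25). Between KO and WT it reversed for Top2a with marginal calls counted (8.33, from -4.17) and in cerebellum arrays (8.33), for Sox11 with marginal calls counted (-4.17, from 2.08) and without WT cb female replicate 1 or WT cb male replicate 1 (-0.595), and for Dcx without WT cb female replicate 1, WT cb male replicate 1 or WT cb male replicate 2 (-0.446, from 3.12). With each array left out, the difference ranged up to 5.06 for Sox11 and 7.14 for Dcx. The cause of these reversals was not tested. The number of arrays, 2 per group, limits every comparison, and calls give no signal over background.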
